A study of Mus musculus with 18 samples.

Results

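The synaptonemal complex genes described here were Sycp1, Sycp2, Sycp3, Syce1, Syce2, Syce3 and Tex12, 7 of the 30172 genes measured, and were chosen by their symbols. They were followed in RNA of whole ovaries from female F1 offspring of wild type C57BL/6J mice, collected at 3 ages after birth, day 3 (Pd3), day 7 (Pd7) and day 21 (Pd21). The dams received a high-methionine diet (3% methionine by weight) to raise their homocysteine (F1-HHcy), or a control diet (F1-Control), before mating, through gestation and through lactation. The labels date its start to 4 weeks before mating and the methods to a longer period, and the pups themselves received no treatment. Each of the 6 groups held 3 libraries, 18 in all, and batch 1 held all libraries of Pd3 and Pd7 while batch 2 held those of Pd21, per the labels. The comparison of the diets asked how maternal hyperhomocysteinemia altered the ovarian transcriptome of the offspring at each age.

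The synaptonemal complex is the protein ladder that holds homologous chromosomes side by side during the first meiotic prophase. SYCP2 and SYCP3 build the axial elements along each chromosome, which become the lateral elements of the ladder. SYCP1 forms the transverse filaments, its rungs, and SYCE1, SYCE2, SYCE3 and TEX12 form the central element. In female mice the complex assembles before birth, and oocytes around birth leave the pachytene stage, lose the complex and rest in dictyate arrest within primordial follicles.

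The genes lie on 7 different chromosomes of the GRCm38 build. Sycp1 is at chr3:102818499-102936100 on the minus strand, Sycp2 at chr2:178345293-178407685 on the minus strand, and Sycp3 at chr10:88459569-88473236 on the plus strand. Syce1 is at chr7:140777229-140787852 on the minus strand, Syce2 at chr8:84872111-84888221 on the plus strand, Syce3 at chr15:89390174-89410503 on the minus strand, and Tex12 at chr9:50556819-50561325 on the minus strand. Sycp3 was the only member whose exons overlapped those of another gene in the annotation. It shared 660 of its 1264 exon bases with Chpt1 on the opposite strand, and Chpt1 averaged 7.61 FPKM over the 18 libraries. The libraries were stranded, but the strand setting of the counting is not given in the sources used here, so Sycp3 levels near that of Chpt1 at Pd21 are uncertain.

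Promoter sequences are shown for Sycp1, Sycp3 and Syce1, the members whose levels followed each other most closely, from 200 to 21 bases before the RefSeq start site (GRCm38.p6, 180 bases each, 5′ to 3′ on the strand of the gene). Capitals mark CACGTG, the palindromic E-box that basic helix-loop-helix factors such as MAX and MGA recognise. The windows are chr3:102936121-102936300 (minus strand) for Sycp1, chr10:88459387-88459566 (plus strand) for Sycp3 and chr7:140787875-140788054 (minus strand) for Syce1.
Sycp1: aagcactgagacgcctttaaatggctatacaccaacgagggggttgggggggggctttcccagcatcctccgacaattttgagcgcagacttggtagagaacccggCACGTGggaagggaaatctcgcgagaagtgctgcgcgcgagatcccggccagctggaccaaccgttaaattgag
Sycp3: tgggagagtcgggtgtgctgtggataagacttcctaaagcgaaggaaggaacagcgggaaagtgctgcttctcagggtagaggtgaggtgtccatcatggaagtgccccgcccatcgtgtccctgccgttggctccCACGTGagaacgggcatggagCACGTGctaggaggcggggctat
Syce1: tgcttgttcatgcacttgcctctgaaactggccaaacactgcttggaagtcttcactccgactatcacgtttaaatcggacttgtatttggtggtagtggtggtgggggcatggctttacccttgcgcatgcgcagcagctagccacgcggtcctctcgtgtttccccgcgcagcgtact

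CACGTG occurred 1 time before the Sycp1 start site, with its first base 94 bases upstream, and 2 times before the Sycp3 start site, 64 and 43 bases upstream. It was not in the Syce1 window. In the whole RefSeq window, from 250 bases before to 50 after the start, CACGTG was found on either strand for 4 of the 7 members. The other two were Tex12, 93 bases upstream, and Syce2, 88 bases upstream of the later of its 2 start sites. Over all 27025 genes of the table, 8.09% held CACGTG at any start site, and 7.15% of all 32851 promoters held it. The letters GGCGGGA, an E2F-type sequence, were found on either strand for Syce2 and Tex12, against 12.7% of all genes. The letters CNCCTCAG, described for the meiotic initiation factor STRA8 and its partner MEIOSIN, were found for Sycp1, Syce2 and Tex12, against 9.12% of all genes. All 7 members matched the table, with 9 start sites. These are matches of letters, and no binding was measured.

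Levels are given in FPKM, which divides the fragments of a gene by its length and by the depth of the library, so levels of different genes can be compared per length. Between 33630641 and 39399281 fragments were counted on genes in each library. Means carry the SD of the 3 libraries of a group (n = 3). Fold changes in log2 are on the scale of log2(FPKM + 1), with the standard error (SE) of a limma fit, and understate the change of genes near 1 FPKM. A gene was called when its unadjusted p was under 0.05 and its log2 fold change was beyond 0.58 in size, and an adjusted p is the Benjamini-Hochberg value of the same limma fit over all genes of a comparison. Genes were tested when at least 3 libraries of the comparison reached 1 FPKM. Whether the libraries of a group came from different litters is not stated, so p-values measure the spread between these libraries. In whole ovaries, fewer cells of a type and less RNA per cell cannot be told apart.

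In F1-Control ovaries at Pd3, Sycp3 was the most abundant member, with 196 ± 53.8 FPKM. Syce2 followed with 73.4 ± 5.88 FPKM. Sycp1, with 35.1 ± 11.0 FPKM, and Syce1, with 33.9 ± 1.71 FPKM, overlapped in their libraries, as did Tex12 (11.2 ± 3.17 FPKM) and Syce3 (9.11 ± 2.69 FPKM). Sycp2 was the lowest, with 2.05 ± 0.146 FPKM. Apart from these 2 neighbouring pairs, the libraries of each member lay above those of the next. The FPKM of Sycp2 rests on a gene length of 9151 bases, while the exons annotated for it in GENCODE cover 5967 bases. The lengths used and annotated also differ for Tex12 (617 and 1016 bases), Syce2 (1373 and 1968 bases) and Sycp3 (1122 and 1264 bases), so the order of Tex12 and Syce3 depends on the gene model.

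Sycp1, the transverse filament gene, was lower in F1-HHcy ovaries at Pd3 and at Pd7. At Pd3 it measured 38.2, 44.2 and 22.9 FPKM in the F1-Control libraries and 3.98, 8.71 and 15.0 FPKM in the F1-HHcy libraries. Every F1-HHcy library lay below every F1-Control library, and the F1-HHcy mean was 26.3% of the control mean. The log2 fold change was -1.92 (SE 0.42), with an unadjusted p of 0.00207 and an adjusted p of 0.0559 from limma. At Pd7 Sycp1 measured 8.74, 9.60 and 5.46 FPKM in F1-Control and 2.41, 1.92 and 1.53 FPKM in F1-HHcy ovaries. Again the groups did not overlap, and the mean of F1-HHcy was 24.6% of that of F1-Control, with a log2 fold change of -1.57 (SE 0.21, limma adjusted p = 0.00347). At Pd21 all 6 libraries lay between 0.728 and 1.47 FPKM, which corresponds to 100 to 204 fragments, and the diets overlapped. The log2 fold change at Pd21 was -0.17, with a 95% interval from -0.59 to 0.26.

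Of the axial element genes, Sycp3 was lower in F1-HHcy ovaries at Pd7, while Sycp2 was called on neither day. At Pd3 Sycp3 measured 204, 245 and 138 FPKM in F1-Control and 32.5, 84.4 and 178 FPKM in F1-HHcy ovaries. The third F1-HHcy library lay within the control range and the first was the lowest of all. The log2 fold change of -1.26 (SE 0.55) missed the threshold, with an unadjusted p of 0.0523 and an adjusted p of 0.227 from limma. Without the third F1-HHcy library the log2 fold change was -1.84 (unadjusted p = 0.00116 from limma), and without the first it was -0.63. At Pd7 Sycp3 measured 103, 112 and 44.9 FPKM in F1-Control and 13.2, 12.0 and 14.2 FPKM in F1-HHcy ovaries. The 3 F1-HHcy libraries lay close together and below all control libraries, at 15.2% of the control mean, with a log2 fold change of -2.52 (SE 0.29, limma adjusted p = 0.00225). This was the largest change of any member tested at Pd7. At Pd21 the 6 libraries lay between 5.64 and 12.5 FPKM and the diets overlapped.

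Sycp2 measured 2.03, 2.21 and 1.92 FPKM in F1-Control and 1.55, 1.72 and 1.79 FPKM in F1-HHcy ovaries at Pd3. The groups did not overlap, but the log2 fold change was only -0.19 (95% interval from -0.49 to 0.11). At Pd7 Sycp2 measured 1.75, 1.22 and 1.82 FPKM in F1-Control and 1.91, 1.62 and 1.16 FPKM in F1-HHcy ovaries. The libraries were intermingled and the log2 fold change was -0.02 (95% interval from -0.41 to 0.37).

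Among the central element genes, Syce1 was lower in F1-HHcy ovaries on both days. At Pd3 it measured 35.5, 34.2 and 32.1 FPKM in F1-Control and 6.17, 14.3 and 23.8 FPKM in F1-HHcy ovaries. The control libraries were tightly grouped and all F1-HHcy libraries lay below them, with a log2 fold change of -1.32 (SE 0.39, unadjusted p = 0.0104, adjusted p = 0.109 from limma). Without the first F1-HHcy library the log2 fold change was -0.84 and still passed the threshold. At Pd7 Syce1 measured 17.3, 25.7 and 9.33 FPKM in F1-Control and 3.59, 2.85 and 2.31 FPKM in F1-HHcy ovaries. The groups did not overlap, and the F1-HHcy mean was 16.7% of the control mean, with a log2 fold change of -2.14 (SE 0.30, limma adjusted p = 0.00402).

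Syce2 stayed high in all 18 libraries, between 37.6 and 87.8 FPKM. At Pd3 it measured 77.9, 75.4 and 66.7 FPKM in F1-Control and 50.9, 63.0 and 46.2 FPKM in F1-HHcy ovaries. The groups did not overlap, and the log2 fold change of -0.46 (SE 0.14, unadjusted p = 0.0106 from limma) lay under the fold threshold. Without the second F1-HHcy library it was -0.58 and passed. At Pd7 Syce2 measured 59.2, 87.8 and 57.1 FPKM in F1-Control and 41.8, 37.6 and 43.0 FPKM in F1-HHcy ovaries. It was lower in F1-HHcy without overlap, by a log2 fold change of -0.70 (SE 0.18, limma adjusted p = 0.0363), and by -0.50, under the fold threshold, without the second F1-Control library.

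Syce3 and Tex12 rested on few fragments. At Pd3 Syce3 counted 189, 227 and 120 fragments in F1-Control and 9, 24 and 130 fragments in F1-HHcy ovaries. The third F1-HHcy library lay inside the control range and the other two far below it. The corresponding levels were 9.71, 11.5 and 6.18 FPKM and 0.449, 1.21 and 6.82 FPKM, with a log2 fold change of -1.75 (SE 0.57, unadjusted p = 0.0164, adjusted p = 0.133 from limma). The call was lost in the limma fit across all genes without the second F1-HHcy library (-1.55) and without the second F1-Control library (-1.58). At Pd7 Syce3 counted 9, 54 and 4 fragments in F1-Control and 0, 12 and 1 fragments in F1-HHcy ovaries, and was not tested. At Pd21 no library held more than 4 fragments.

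Tex12 measured 11.8, 14.1 and 7.80 FPKM in F1-Control and 3.26, 5.88 and 6.39 FPKM in F1-HHcy ovaries at Pd3. The groups did not overlap and the log2 fold change was -0.99 (SE 0.27, unadjusted p = 0.00662, adjusted p = 0.0897 from limma). At Pd7 it measured 7.22, 5.96 and 1.51 FPKM in F1-Control and 2.42, 1.83 and 2.41 FPKM in F1-HHcy ovaries. The third control library was the lowest of the 6, and the log2 fold change of -0.71 (SE 0.37) was not called (unadjusted p = 0.0881 from limma). The value depended on single control libraries. Without the third it was -1.24, with an unadjusted p of 7.47e-05 from limma, and without the first F1-Control library it was -0.38.

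**Figure D1:**
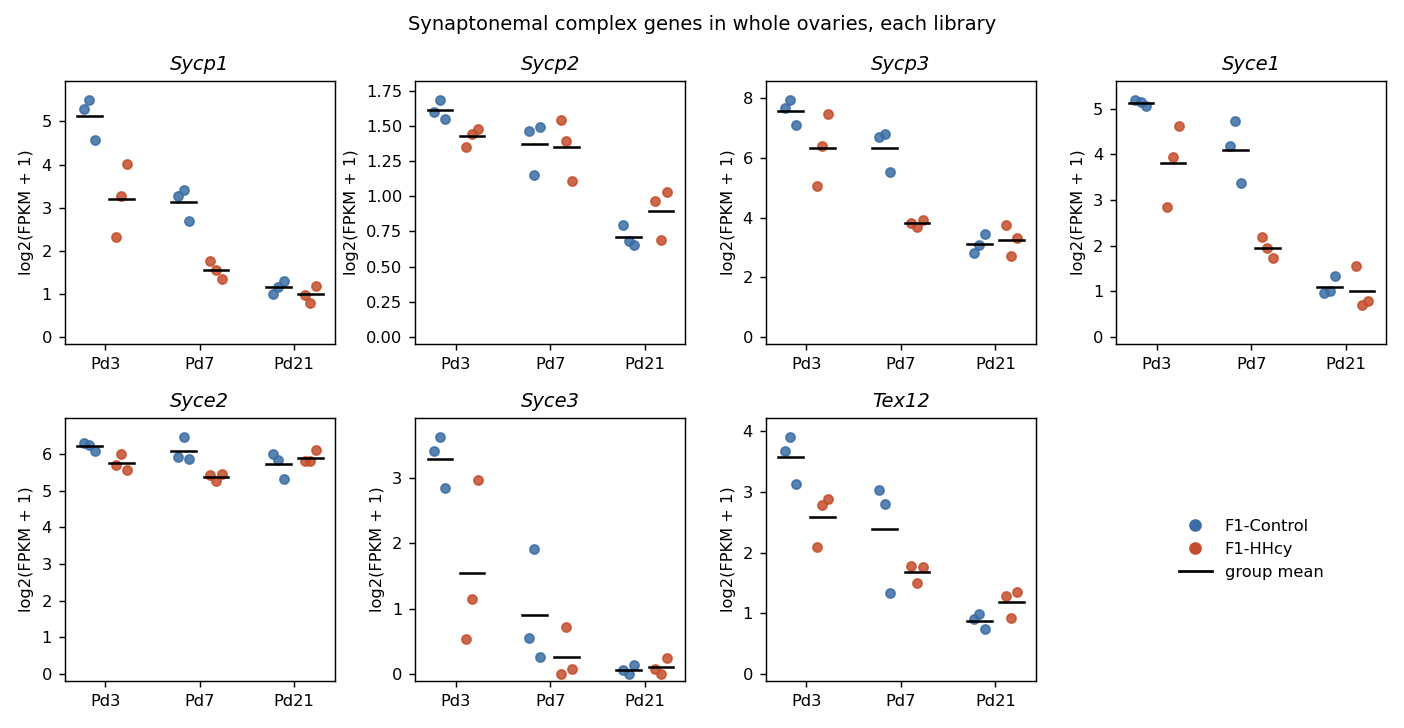
Level of each synaptonemal complex gene in each of the 18 libraries, as log2(FPKM + 1), by age, with F1-Control in blue, F1-HHcy in red and a bar at the group mean (3 libraries a group). Sycp1, Sycp3 and Syce1 were lower in every F1-HHcy library at Pd7 and low in both diets at Pd21, while Syce2 stayed between 37.6 and 87.8 FPKM.

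By count, 4 of 7 members were lower in F1-HHcy ovaries at Pd3 and none was higher, against 4.74% of all 13277 genes tested that were lower and 5% that were higher. None of the 7 had an adjusted p under 0.05, against 1.43% of all genes lower by that rule. The groups did not overlap for 5 members, all lower, against 16.1% of all genes. The median log2 fold change of the 7 members was -1.26 and that of all genes -0.031. At Pd7, 4 of the 6 members tested were lower and none was higher, against 7.35% of 13299 genes lower and 9.06% higher. The same 4 had an adjusted p under 0.05, against 5.98% of all genes lower by that rule. The groups did not overlap for 4 of 7 members, against 19.5% of all genes lower without overlap. The median log2 fold change was -1.14 for the 6 members tested and -0.0015 for all genes.

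At Pd21, 4 members passed the filter and none was called, against 5.06% of 13350 genes that were lower and 0.0824% that were higher. All 7 members overlapped between the diets. Of the 4 tested members, the smallest unadjusted p was 0.393, for Syce2, and its 95% interval ran from -0.28 to 0.63. The intervals ran from -0.49 to 0.78 for Sycp3 and from -0.68 to 0.50 for Syce1, which at 1.17 FPKM in F1-Control ovaries could fall by no more than 1.11 on this scale.

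**Figure D2:**
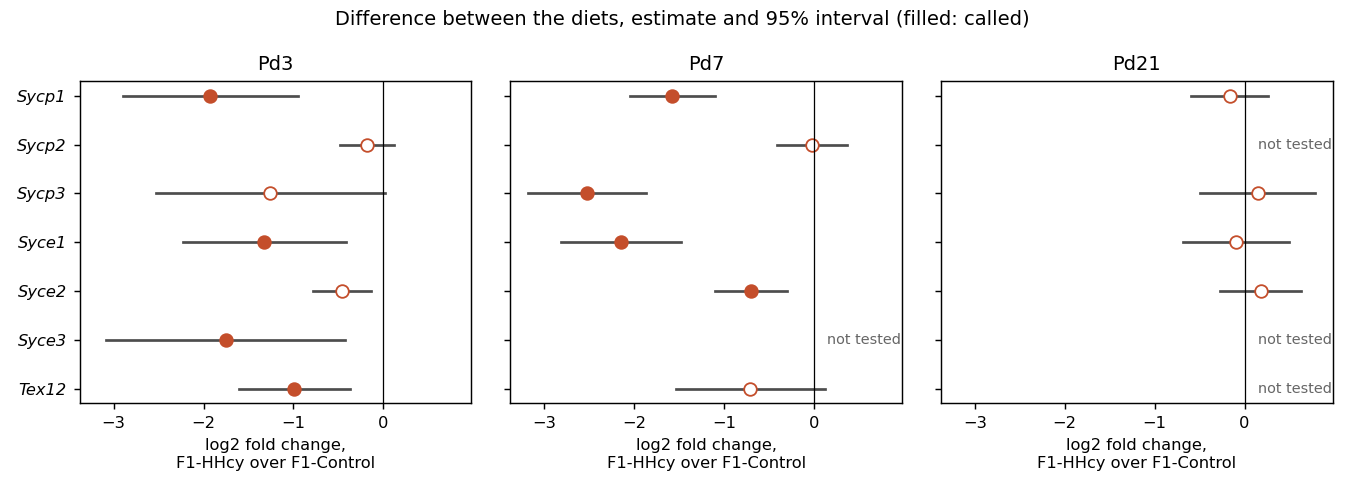
Log2 fold change of F1-HHcy over F1-Control for each gene and day, on log2(FPKM + 1), with the 95% interval of the limma fit as a line and filled circles for called genes. Members below the filter are marked as not tested; 4 members were called lower at Pd3, 4 at Pd7 and none at Pd21.

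A model of all 18 libraries tested whether the diet effect of a gene differed from day to day. From Pd7 to Pd21 the diet effect of Sycp3 differed by 2.67 on the log2 scale (SE 0.65, limma adjusted p = 0.0273) and that of Syce1 by 2.05 (SE 0.52, limma adjusted p = 0.0362), and 0.986% of genes passed that adjusted threshold upward. From Pd3 to Pd21 the diet effect of Sycp1 differed by 1.76 (SE 0.46, limma adjusted p = 0.0366), against 0.815% of genes. The scale itself contributes to these differences, because a gene near 1 FPKM has little room to fall on log2(FPKM + 1). Had the ratio of mean FPKM of the earlier day also held at Pd21, the scale alone would have given a difference of 1.06 for Sycp1, 1.34 for Syce1 and 0.62 for Sycp3. With a pseudocount of 0.1, which compresses less, the differences were 1.76 for Sycp1, 2.23 for Syce1 and 2.76 for Sycp3, with limma adjusted p of 0.0823, 0.0658 and 0.0286. By the unadjusted rule the diet effect was higher at Pd21 than at Pd3 for 6 of 7 members (4% of 14607 genes) and higher at Pd21 than at Pd7 for 5 of 7 (5.55% of genes). Sycp1 from Pd7 to Pd21, and Sycp3 and Syce1 from Pd3 to Pd21, passed only that rule (limma adjusted p 0.106, 0.294 and 0.245). The first count includes Syce3, which held at most 4 fragments in any library at Pd21, so that its difference restates its change at Pd3. On recovered fragments with limma-voom these counts were 2 and 2, and without single libraries the first count fell to 3 at the lowest. Between Pd3 and Pd7 no member's diet effect differed by the rule, against 5.28% of genes lower and 4.75% higher. That count reached 2 lower, Sycp3 and Syce1, without the first F1-HHcy library at Pd3 or without the third F1-Control library at Pd7. It reached 1 higher without the third F1-HHcy library at Pd3 or the second F1-Control library at Pd7, but that gene was Syce3, which held 0 to 12 fragments in the F1-HHcy libraries at Pd7. Each diet effect was measured within 1 batch, but in a difference that involves Pd21, age and batch cannot be told apart.

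With age, most members fell in F1-Control ovaries. From Pd3 to Pd7, both in batch 1, 5 of 7 members were called lower and none higher, against 7.77% of 13336 genes that were lower and 7% that were higher, and 4 had an adjusted p under 0.05, against 7.59%. Sycp1 fell by 2.00 on the log2 scale (SE 0.26, limma adjusted p = 0.00212), and Syce3 by 2.40 (SE 0.40, limma adjusted p = 0.00642). Sycp3 fell by 1.24 (SE 0.34, limma adjusted p = 0.0417) and Syce1 by 1.03 (SE 0.29, limma adjusted p = 0.0443). Tex12 fell by 1.19 with an adjusted p of 0.0818 from limma, and its call was lost without the second F1-Control library at Pd3 (-1.02, unadjusted p = 0.0607). Without the third F1-Control library at Pd7, Syce1 fell by 0.66, Tex12 by 0.66 and Sycp3 by 0.82, and all 3 still passed the threshold. The libraries of 6 of 7 members did not overlap between the days, all lower, against 22.9% of genes. Syce2 changed by -0.13 (95% interval -0.53 to 0.26) and Sycp2 by -0.24 (95% interval -0.59 to 0.11).

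In F1-HHcy ovaries 4 of the 6 members tested were lower at Pd7 than at Pd3, against 5.36% of 13257 genes. None had an adjusted p under 0.05, and in that comparison no gene of the whole table had one in limma, while 760 genes higher and 711 lower passed the unadjusted rule. Sycp3 fell by 2.50 (SE 0.53, unadjusted p = 0.00187 from limma), Syce1 by 1.85 (SE 0.41), Sycp1 by 1.65 (SE 0.39) and Tex12 by 0.91 (SE 0.22). This comparison shares the F1-HHcy libraries with the comparisons of the diets.

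By Pd21, Sycp1 stood at 3.51% of its Pd3 level in F1-Control ovaries, Sycp3 at 4.01% and Syce1 at 3.44%, while Syce2 stood at 72.0%. All 7 members were lower at Pd21 than at Pd3 in F1-Control ovaries without overlap, across the batches, against 30.8% of 13721 genes. The order of the levels changed accordingly. Syce2 ranked second after Sycp3 in both diets at Pd3 and in F1-Control ovaries at Pd7, and was the most abundant member in F1-HHcy ovaries at Pd7 and in both diets at Pd21. Sycp3 and Syce2 overlapped in F1-HHcy ovaries at Pd3 and in F1-Control ovaries at Pd7. In F1-HHcy ovaries at Pd7 Syce2 made up 64.0%, 64.3% and 66.5% of the summed FPKM of the members, against 30.0%, 35.8% and 47.5% in F1-Control ovaries. From Pd7 to Pd21, across the batches, Syce2 was higher in F1-HHcy ovaries without overlap (40.8 ± 2.82 against 59.0 ± 7.37 FPKM), as were 18.7% of 13256 genes. The other members had lower means at Pd21 in F1-HHcy ovaries. Sycp1 stood at 51.0% of its Pd7 level, Sycp2 at 55.6%, Sycp3 at 68.5%, Syce1 at 37.6%, Syce3 at 33.7% and Tex12 at 58.3%.

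The level of oocyte genes also differed between the diets, in a direction that depended on the genes taken. One list held 10 oocyte genes (Ddx4, Dazl, Figla, Sohlh1, Nobox, Lhx8, Mael, Taf4b, Tdrd1 and Stk31), whose mean log2(FPKM + 1) is called the pan-oocyte index. Several are genes of early oocytes that fell with age, such as Sohlh1 (92.9, 48.9 and 4.76 FPKM in F1-Control ovaries at Pd3, Pd7 and Pd21) and Figla (63.2, 53.5 and 6.87 FPKM), so the index does not measure the number of oocytes. At Pd3 the index was 5.24, 5.30 and 5.14 in F1-Control and 3.87, 4.49 and 5.03 in F1-HHcy libraries. At Pd7 it was 4.61, 4.83 and 4.18 in F1-Control and 3.32, 3.25 and 3.46 in F1-HHcy libraries. F1-HHcy was lower without overlap on both days, by 0.76 and by 1.20 on the log2 scale, and the diets overlapped at Pd21. The F1-HHcy libraries at Pd3 stood in the same order for the index, Sycp1, Sycp2, Sycp3, Syce1, Syce3 and Tex12, with the first lowest and the third highest. For Syce2 they stood in another order.

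**Figure D3:**
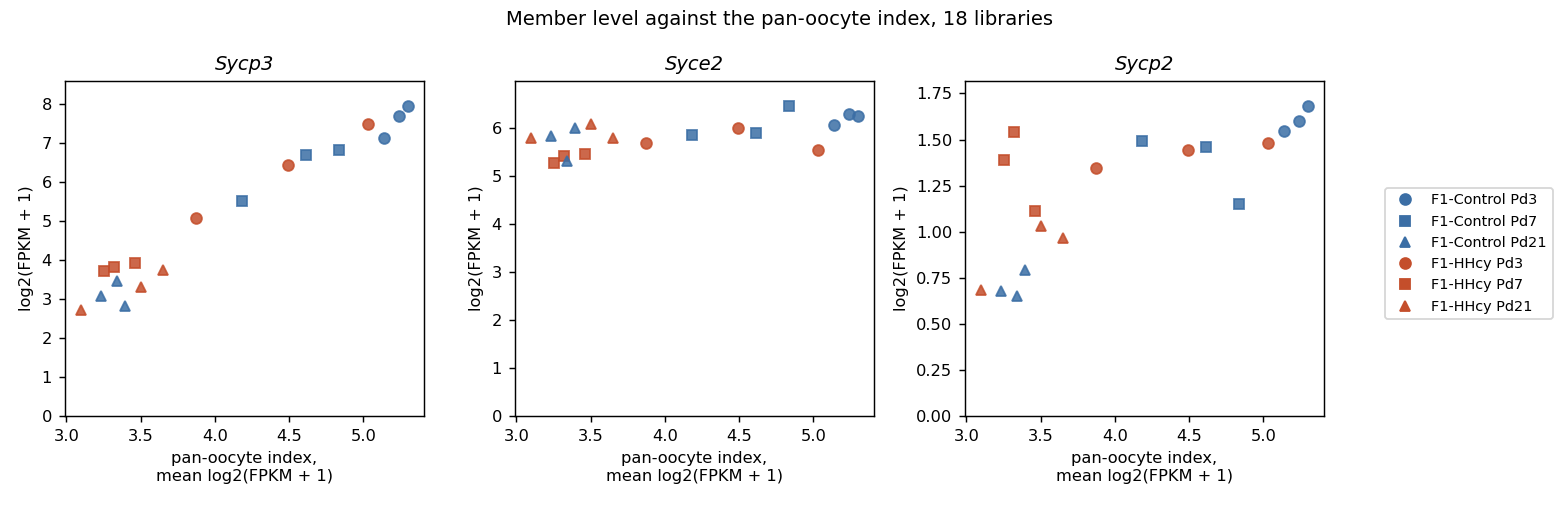
Level of Sycp3, Syce2 and Sycp2 as log2(FPKM + 1) against the pan-oocyte index (mean log2(FPKM + 1) of 10 genes) in the 18 libraries, with diets by colour and days by symbol. Sycp3 rose along the index from 5.64 to 245 FPKM over the libraries, while Syce2 stayed between 37.6 and 87.8 FPKM.

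Of the 10 pan-oocyte genes, 5 were called lower and none higher at Pd3, with a median log2 fold change of -0.81. At Pd7, 9 were lower and Taf4b, a germ cell subunit of the general transcription factor TFIID, was higher, with a median of -1.06. Of all genes, 4.74% were called lower and 5% higher at Pd3, and 7.35% and 9.06% at Pd7. Sohlh1, an early oocyte transcription factor, changed by -2.66 (SE 0.26) at Pd7 and Figla, which drives primordial follicle formation, by -2.17 (SE 0.28). Mael, a piRNA pathway gene, changed by -2.11 (SE 0.27).

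Relative to the pan-oocyte index, Sycp1 and Syce1 were lower in F1-HHcy ovaries without overlap on both days. Sycp1 lay 1.16 lower at Pd3 and 0.38 lower at Pd7 on the log2 scale, and Syce1 0.56 and 0.94 lower. The index is a mean, and among its own genes at Pd7 Sohlh1, Figla and Mael fell by more than it, while Taf4b rose. The share of all genes that lay lower relative to the index without overlap was not computed. Sycp3 relative to the index overlapped at Pd3 and lay 1.33 lower without overlap at Pd7. Syce3 and Tex12 overlapped on all 3 days. On the same scale Sycp2 was higher in F1-HHcy ovaries without overlap at Pd3 (by 0.58) and Pd7 (by 1.18). Syce2 was higher without overlap at Pd7 (by 0.50). The index itself was lower in F1-HHcy ovaries by 0.76 at Pd3 and 1.20 at Pd7. A gene with equal levels in both diets would therefore read higher by those amounts, and the share of all such genes was not computed. Without the index, Sycp2 was called on neither day and Syce2 was called lower at Pd7. At Pd21 all 7 members overlapped. These relative levels are descriptions with no test, and the pseudocount compresses the values of Sycp2 and Syce3, which lie near or under 1 FPKM. In F1-HHcy ovaries at Pd7 it also compresses those of Sycp1 (1.53 to 2.41 FPKM), Tex12 (1.83 to 2.42 FPKM) and Syce1 (2.31 to 3.59 FPKM). For Sycp1 at Pd7 the lowest F1-Control value was -1.49 and the highest F1-HHcy value -1.55.

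**Figure D4:**
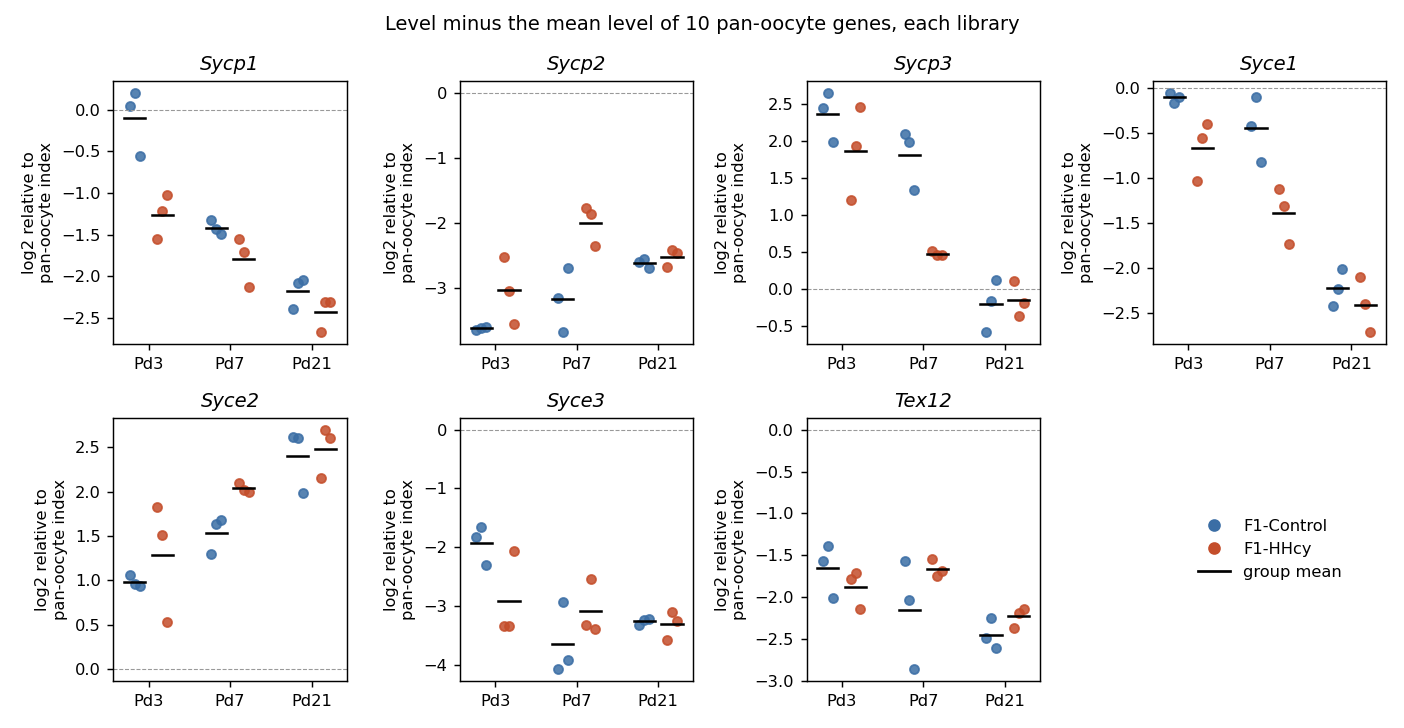
Level of each member relative to the pan-oocyte index in each library (log2(FPKM + 1) of the gene minus the mean of 10 pan-oocyte genes), F1-Control in blue, F1-HHcy in red, bars at group means. Sycp1 and Syce1 lay lower in F1-HHcy at Pd3 and Pd7 without overlap, and Sycp2 lay higher. The index itself was lower in F1-HHcy on both days, so a gene with equal levels in both diets lies higher here.

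Across the 18 libraries the log2 levels of Sycp1, Sycp3 and Syce1 followed each other with Pearson r of 0.96 to 0.99. For deviations from the group means these r were 0.81 for Sycp1 with Syce1, 0.91 for Sycp1 with Sycp3 and 0.91 for Sycp3 with Syce1. Tex12 had r of 0.93 to 0.95 with these 3 genes over all libraries and 0.67 to 0.77 within groups. Syce2 had r of 0.50 to 0.54 with them over all libraries and 0.04 to 0.11 within groups, and Sycp2 0.78 to 0.80 and 0.06 to 0.27. The libraries share ages and batches, so these r are descriptions.

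Among 14607 genes, the 10 outside the members whose levels were most like the mean profile of the members had r between 0.976 and 0.985 over the 18 libraries. For deviations from the group means their r ran from 0.81 to 0.92. The closest was Cdkn2a, the cell cycle inhibitor locus of p16 and p19, which averaged 13.2 FPKM in F1-Control and 4.42 FPKM in F1-HHcy ovaries at Pd3, and 5.48 and 0.967 FPKM at Pd7. Next came Zcwpw1, a reader of histone marks at meiotic recombination sites, with 23.9 and 12.8 FPKM at Pd3 and 12.3 and 4.63 FPKM at Pd7. The others were Xlr4a, Shcbp1l, Gm15246, Gm4779, Mageb4, Trap1a, Ofd1 and Gm15389. Of the members themselves, Syce2 (r = 0.61) and Sycp2 (r = 0.80) followed the mean profile less closely than these genes.

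The other genes of meiotic prophase moved in the same direction in part. Of 36 listed genes, 28 were tested at Pd3, with a median log2 fold change of -0.39. Of these 28, 5 were called lower and none higher, against 4.74% and 5% of all genes. Rec8, a meiotic cohesin subunit, measured 25.9 ± 3.41 FPKM in F1-Control and 7.51 ± 4.47 FPKM in F1-HHcy ovaries, a log2 fold change of -1.78 (SE 0.33, limma adjusted p = 0.0392). The cohesin subunits Smc1b (-1.20, SE 0.37) and Stag3 (-0.93, SE 0.27) were also called lower. At Pd7, 8 of 21 tested genes were lower, with a median of -0.43, and none higher, against 7.35% and 9.06% of all genes. Smc1b was lowered most at Pd7, from 33.1 ± 9.46 to 6.19 ± 0.51 FPKM (log2 fold change -2.21, SE 0.21, limma adjusted p = 0.00113). Tex11, which promotes crossing over, changed by -1.45 (SE 0.25) and Mnd1, a partner of the recombinases, by -1.14 (SE 0.17). At Pd21, 0 of 15 tested genes were called.

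Markers of growing oocytes and of other cells were compared on the same days. Of all genes, 5% were called higher and 4.74% lower at Pd3, and 9.06% and 7.35% at Pd7. At Pd3, 7 of 10 genes of growing oocytes were called higher in F1-HHcy ovaries, with a median log2 fold change of 1.14, while the members were lower. Their summed level was 1067 to 1617 FPKM in F1-Control and 1986 to 2960 FPKM in F1-HHcy libraries. Gdf9, an oocyte growth factor, rose from 40.2 ± 10.4 to 156 ± 66.6 FPKM (log2 fold change 1.85, SE 0.34). At Pd7, 2 of these 10 genes were higher and 5 lower. Their sum was 2379 to 3909 FPKM in F1-Control and 1456 to 2290 FPKM in F1-HHcy libraries. Bmp15, another oocyte growth factor, was higher (log2 fold change 1.82, SE 0.23), and Zp2, which encodes a protein of the zona pellucida, was lower (-1.17, SE 0.23).

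Granulosa cell genes were higher in F1-HHcy ovaries for 4 of 7 tested at Pd3 and 5 of 8 at Pd7. Their sum was 184 to 197 FPKM in F1-Control and 233 to 503 FPKM in F1-HHcy libraries at Pd3, and 229 to 508 against 514 to 906 FPKM at Pd7. Amh, a hormone of growing follicles, had a log2 fold change of 3.47 (SE 0.69) at Pd3. Its level was 2.08 ± 0.43 FPKM in F1-Control and 48.2 ± 46.4 FPKM in F1-HHcy ovaries, where the libraries spread from 9.72 to 99.7 FPKM. Of the 7 tested at Pd3, 2 had a negative log2 fold change and none was called lower. Kitl was one of these, with 60.2 ± 5.82 FPKM in F1-Control and 40.9 ± 5.35 FPKM in F1-HHcy ovaries. Genes of stroma and theca were higher for 5 of 6 at Pd3. At Pd7, 3 of 8 were higher, with Cyp17a1 of androgen synthesis at 5.34 (SE 0.63), and 1 was lower. Their sum was 368 to 504 against 678 to 891 FPKM at Pd3 and 835 to 1013 against 656 to 1190 FPKM at Pd7. Of 4 endothelial genes, 3 were higher at Pd3 and none was called at Pd7, with sums of 25.7 to 35.0 against 50.0 to 59.5 FPKM at Pd3. Of the leukocyte genes none was called at Pd3 or Pd7 (3 tested each day), with sums between 9.37 and 15.8 FPKM.

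Erythroid genes were lower in F1-HHcy ovaries for 6 of 6 at Pd3 and 5 of 5 tested at Pd7. Their sum was 3914 to 11214 FPKM in F1-Control and 780 to 1107 FPKM in F1-HHcy libraries at Pd3, and 925 to 5760 against 287 to 502 FPKM at Pd7. Without mitochondrially encoded and hemoglobin genes in the scaling, 4 members were called lower at Pd3 and 4 at Pd7, the same counts as with them. At Pd21 all 5 genes of multiciliated epithelium were lower in F1-HHcy libraries, with a sum of 55.4 to 207 FPKM in F1-Control and 4.62 to 8.19 FPKM in F1-HHcy libraries, while the members overlapped. No group mean of an oocyte, granulosa, stromal, endothelial, leukocyte or erythroid marker lay under 0.1 FPKM. The part of oocyte, granulosa, stromal, endothelial and erythroid RNA in the differences of the members was not tested.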

How the data were processed

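RNA of whole ovaries was sequenced in 18 poly-A selected, stranded libraries, 3 for each diet and day. The submitters' processing notes name FastQC 0.11.9, Trimmomatic 0.39, STAR 2.7.9a, featureCounts 2.0.1 and DESeq2 1.36.0 with the GRCm38 (mm10) build, and the annotation is not given in the sources used here. The files deposited by the authors hold a single normalized number for each symbol in each library. It was read as FPKM, since 1 gene length per gene turned the deposited FPKM values into whole fragments (within 0.1) for all 27294 genes above 0 in at least 3 libraries. Depth was 33630641 to 39399281 fragments per library.

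Genes that reached 1 FPKM in 3 or more libraries were compared on log2(FPKM + 1) with limma 3.58.1 in R 4.3.3 (empirical Bayes with a trend of variance on mean). Each diet comparison used the 6 libraries of its day, each comparison of Pd7 with Pd3 the 6 libraries of its diet, and the differences between days all 18. The scripts were tested on simulated data, and tables were made with pandas 2.3.3 and numpy 2.4.6 in Python 3.11.15 and figures with matplotlib 3.10.9. The members and gene lists were chosen with earlier results of these data known. All 7 members are described, and of each other list the genes named come from the 3 with the smallest p in the diet comparisons at Pd3 and Pd7 and the 2 most abundant, with Taf4b and Chpt1 named after their values were seen. Of the genes with similar profiles, the 10 with the highest Pearson r are given. The differences that the scale alone would give were computed after the data were seen, from group mean FPKM ratios. Gene positions are from GENCODE vM21 and promoters from RefSeq.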

Additional observations from a re-analysis of the deposited data

Results flagged for a closer look

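The diet effect of 3 members differed between Pd21 and 1 earlier day in a test of the difference itself. The day given for each gene is the one whose adjusted p was under 0.05. Against the other earlier day the limma adjusted p was 0.106 for Sycp1 (Pd7), 0.294 for Sycp3 (Pd3) and 0.245 for Syce1 (Pd3). Those differences were also positive and passed the unadjusted rule only, so the choice of days does not show a timing specific to each gene. For Sycp1 the difference of the log2 fold changes, Pd21 minus Pd3, was 1.76 (SE 0.46, limma adjusted p = 0.0366). For Sycp3 the difference of Pd21 minus Pd7 was 2.67 (SE 0.65, limma adjusted p = 0.0273), and for Syce1 it was 2.05 (SE 0.52, limma adjusted p = 0.0362). In all 3 cases every F1-HHcy library lay below every F1-Control library on the earlier day, and the diets overlapped at Pd21, which the labels place in batch 2. At Pd21 Sycp1 and Syce1 lay near 1 FPKM, where log2(FPKM + 1) leaves little room to fall, and Sycp3 lay near the level of the overlapping gene Chpt1. Had the FPKM ratio of the earlier day held at Pd21, the scale alone would have given differences of 1.06 for Sycp1, 1.34 for Syce1 and 0.62 for Sycp3. With a pseudocount of 0.1 the limma adjusted p was 0.0823 for Sycp1, 0.0658 for Syce1 and 0.0286 for Sycp3, and with limma-voom it was 0.276, 0.269 and 0.126. With limma-voom on recovered fragments Syce1 did not pass the unadjusted threshold (log2 difference 2.21). Groups of 3 libraries are too small for a test of single outlying libraries.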

How the results depend on the processing

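Pseudocount 0.1, no filter, all 18 libraries in 1 model, median-ratio scaling and leaving out mitochondrial and hemoglobin genes kept the number of members called in the 3 diet comparisons and the comparisons of Pd7 with Pd3 within 1.5 times. With an adjusted p under 0.05 as threshold, the count of members lower was 0 at Pd3 and 0 for Pd7 against Pd3 in F1-HHcy, and the count with a higher diet effect was 1 for Pd21 minus Pd3 and 2 for Pd21 minus Pd7. Limma-voom on recovered fragments gave 2 and 2 for these last comparisons. The diet effect of Syce3 for Pd7 minus Pd3 turned to -0.11 with limma-voom. The causes were not tested.

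Leaving out single libraries gave 3 to 5 members lower at Pd3, 3 to 5 at Pd7, 0 at Pd21, and 4 to 5 and 4 to 4 for Pd7 against Pd3 in F1-Control and F1-HHcy. For the difference of the diet effect it gave 0 to 2 members lower and 0 to 1 higher for Pd7 minus Pd3, 3 to 6 higher for Pd21 minus Pd3 and 4 to 5 for Pd21 minus Pd7. Small values that changed sign were Sycp2 at Pd7 (-0.13 to 0.097), Sycp3 (-0.10 to 0.41), Syce1 (-0.16 to 0.066) and Syce2 (-0.021 to 0.32) at Pd21, and Sycp2 in F1-HHcy for Pd7 against Pd3 (-0.17 to 0.041). The difference Pd7 minus Pd3 also changed sign for Sycp1 (-0.092 to 0.75) and Tex12 (-0.25 to 0.61).

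The labels do not say whether libraries with the same replicate number are linked, and 3 libraries a group are too few to show it. The correlations of their deviations from the group means ran from -0.32 to 0.29, and not every library correlated best with its own number. With the replicate number as a block, 4 members were lower at Pd3 and 5 at Pd7 (Tex12 added, -0.71), and 0 at Pd21. Syce3 rested on at most 12 fragments in F1-HHcy libraries at Pd7 and at most 4 in any library at Pd21, too few for a test.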
